A study of Mus musculus with 4 samples.

Results

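Kinesins are motor proteins that use ATP to move along microtubules or to shorten them. They were followed here through their messages, in RNA that came down with an antibody against DDX20, a DEAD-box RNA helicase of the SMN complex. Cells were taken from the testes of C57BL/6 mice at 7 days of age and exposed to ultraviolet light (200 mJ per square cm at 254 nm). Each of 2 DDX20 immunoprecipitates (RIP) was compared with 2 libraries of input RNA, for which 10% of the total RNA was used and no antibody was added. No genotype difference or treatment separates the groups, and all 4 libraries are labelled as the same strain, cell source and age. The catalogue numbers of the antibody differ by a character between the labels of the RIP libraries. The kinesin genes were taken by symbol from the deposited count table, as protein-coding genes named Kif with a number and at most a letter, or Kifc with a number. This gave 42 genes of the 55357 identifiers in the table. They were sorted by textbook role into 15 mitotic, 14 transport and 9 ciliary kinesins, with 4 others.

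Input libraries held 21416567 and 21913977 deposited counts, and RIP libraries 37927689 and 38458014. Levels are shares of a library, so a gene that is higher in RIP took up more of the precipitate's reads than of the input's. No precipitate with another antibody was used here, so recovery by DDX20 and recovery by the procedure itself cannot be told apart. The labels do not say that replicates came from separate cell preparations, and p-values then measure only the spread between these libraries, which may be technical.

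All kinesins share a motor domain, and what surrounds it sets the work each motor does. Mitotic kinesins build and shorten the spindle, slide its microtubules apart, move chromosomes and organise the midzone where the cell divides. Transport kinesins carry vesicles and organelles towards microtubule ends. Ciliary kinesins carry building material into cilia or control cilium length and signalling, and some work in sperm tails. At this age the testis holds dividing spermatogonia and Sertoli cells and no sperm.

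The loop that holds the phosphates of ATP is the sequence by which the motor domain is most easily recognised, and its codons are shown for 3 messages with the largest increases in RIP, for Kif6, which fell, for Kif5c, which stood apart from its close relative Kif5b, and for a member that lacks part of the pattern. Each line gives 24 bases of loop codons in capitals with 21 coding bases on either side, 5′ to 3′ on the coding strand, from the GENCODE M21 transcripts (GRCm38).
Kif14: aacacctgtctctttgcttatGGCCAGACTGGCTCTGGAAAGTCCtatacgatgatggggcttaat
Kif13a: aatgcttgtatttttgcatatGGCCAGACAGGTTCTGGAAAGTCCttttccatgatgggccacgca
Kif4: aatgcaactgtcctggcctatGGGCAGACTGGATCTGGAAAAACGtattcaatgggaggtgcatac
Kif5c: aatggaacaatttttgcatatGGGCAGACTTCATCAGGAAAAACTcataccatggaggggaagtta
Kif6: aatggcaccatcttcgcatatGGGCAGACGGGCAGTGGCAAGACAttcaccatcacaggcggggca
Kif26b: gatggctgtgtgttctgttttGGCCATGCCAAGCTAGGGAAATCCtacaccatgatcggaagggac
The full kinesin form of the loop was found in the reading frames of 40 of the 42 genes, against 0.649% of 21876 coding genes. The exceptions were Kif26a and Kif26b, known as kinesins without ATP-driven motility, which matched only the shorter form of the loop that 4.28% of coding genes hold. The loop codons lie in coding exon sequence at chr1:136471546-136471569 (Kif14, plus strand), chrX:100633865-100633888 (Kif4, plus strand), chr2:49680203-49680226 (Kif5c, plus strand) and chr17:49671070-49671093 (Kif6, plus strand). Those of Kif13a (chr13:46830961-46832733, minus strand) and of Kif26b (chr1:178869424-178870604, plus strand) are split by an intron.

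Messages of most kinesins were enriched in RIP. The kinesin genes took 0.174% and 0.175% of all counts in input, and this became 0.347% and 0.344% in RIP. Of the 42 genes 34 rose in RIP, 1 fell and 4 did not pass the test, and 3 had too few counts to be tested. The rises were led by Kif14, Kif13a and Kif4, and the gene that fell was Kif6. Of all 17422 genes tested 77.3% passed, 38.7% as higher and 38.6% as lower (quasi-likelihood test of edgeR, p adjusted by Benjamini-Hochberg, threshold 0.05). The median log2 fold change of the kinesins tested was 1.19, against -0.05 for all genes tested. The 39 kinesins tested passed the count filter in the input libraries and in the RIP libraries alike. Rises of at least 2-fold were called for 25 kinesins and for 17.1% of all genes, and falls of that size for Kif6 and for 23.5% of all genes. With total counts in place of scaling by trimmed means (TMM), 31 kinesins were higher and 2 lower, against 28.7% and 50.8% of all genes, whose median log2 fold change moved to -0.40. Upper-quartile scaling gave 31 and 2 as well, against 28.8% and 50.5%.

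**Figure D1:**
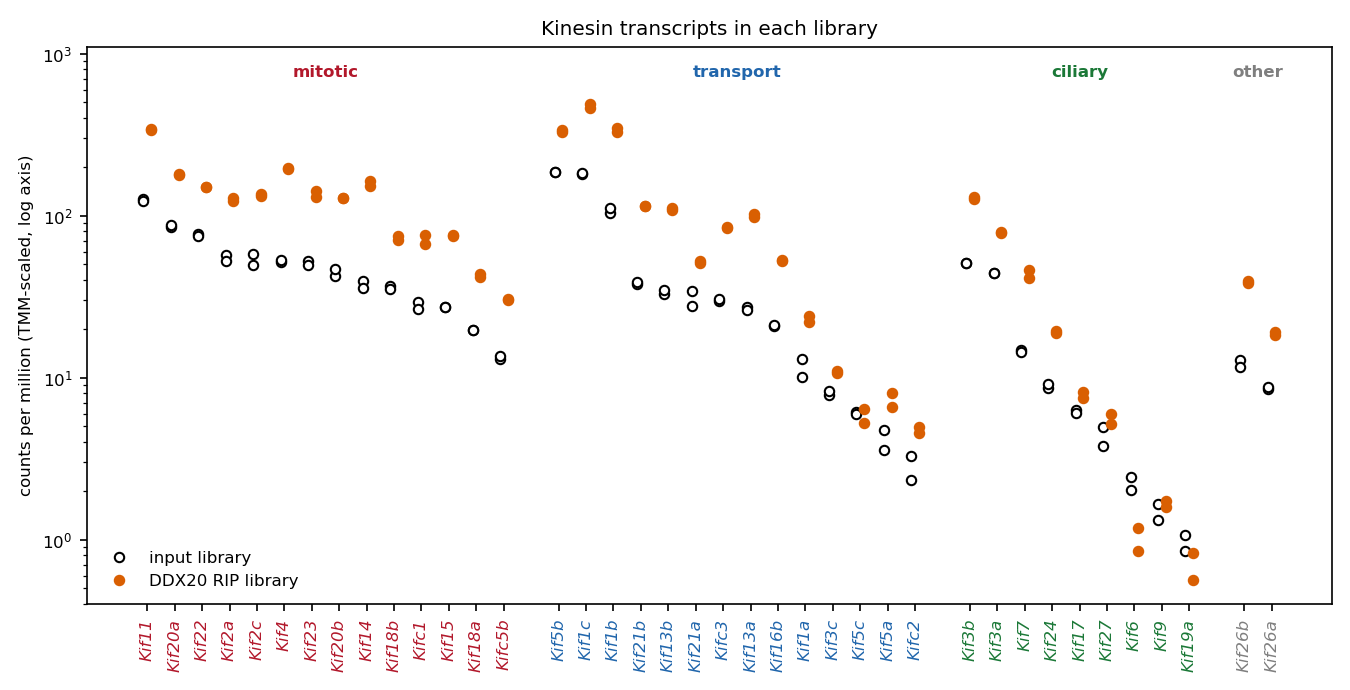
Levels in CPM (counts scaled to library size by TMM, log axis) of the 39 kinesin genes tested, ordered within each sub-group by their mean in input; open circles are the 2 input libraries and filled circles the 2 DDX20 RIP libraries. RIP libraries lie above input libraries for every mitotic kinesin, while at the low end of the ciliary kinesins Kif6 lies below its input.

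Every mitotic kinesin with enough counts rose in RIP. All 14 tested passed, with log2 fold changes from 0.99 to 2.07 and a median of 1.34, and 13 rose at least 2-fold. Among all genes tested 38.7% were higher, and 17.1% by at least 2-fold. Kif14, which holds the midbody together late in division with its partner citron kinase, was at 39.7 and 36.0 CPM (counts relative to the TMM-scaled library size) in the input libraries and at 164.8 and 153.5 CPM in the RIP libraries. Both RIP libraries lay far above both input libraries, and the log2 fold change was 2.07 ± 0.0499 (SE, n = 2 libraries in each group, edgeR adjusted p = 2.82e-28). Kif4, a chromosome-arm kinesin that also limits the length of midzone microtubules, was at 52.0 and 53.6 CPM in input and at 195.7 and 195.4 CPM in RIP, a log2 fold change of 1.89 ± 0.0412. Replicates of Kif4 nearly coincided within each group.

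The most abundant mitotic member was Kif11, the spindle-pole-separating motor also called Eg5. It was at 126.3 and 124.0 CPM in input and at 336.9 and 342.5 CPM in RIP (log2 fold change 1.44 ± 0.0324). Kif15, a motor that can take over spindle assembly from Kif11, rose by 1.47 ± 0.0598 on the log2 scale, close to Kif11. The smallest rise in the group was that of Kif22, which pushes chromosome arms away from the poles, from 76.8 and 74.7 CPM to 150.4 and 151.1 CPM (0.99 ± 0.0405). Kif18a (1.11) and Kif18b (1.01), which dampen microtubule growth at chromosomes and at the cortex, stood at the lower end as well.

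The kinesin-6 motors of the central spindle all rose. Kif23, the motor that joins Racgap1 in centralspindlin, was at 52.5 and 49.8 CPM in input and at 130.7 and 142.2 CPM in RIP (1.41 ± 0.0479). Kif20a, which brings the chromosomal passenger complex to the midzone, was at 84.8 and 87.7 CPM in input and at 182.0 and 179.5 CPM in RIP (1.07 ± 0.0385). Kif20b, needed for the late steps of cytokinesis, was at 42.2 and 46.7 CPM in input and at 127.9 and 128.2 CPM in RIP (1.53 ± 0.0486). Groups did not overlap for any of these genes, but the share of all genes without overlap is not given here. An opposite-strand gene, Cdc23, covers 29.3% of the exonic bases of Kif20a, and the library kit does not mark strand, so reads of the pair cannot be fully told apart.

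Kinesin-13 motors, which take microtubules apart instead of walking, rose where they were expressed. Kif2c, the depolymerase of centromeres, was at 49.9 and 58.4 CPM in input and at 136.3 and 133.1 CPM in RIP (1.32 ± 0.0514). Kif2a, which works at spindle poles and also in neurons, was at 57.0 and 52.7 CPM in input and at 128.9 and 122.7 CPM in RIP (1.20 ± 0.0469). These values differ by 0.12 with a combined SE of 0.0696. Kif2b had 4 and 2 counts in input and 2 and 2 in RIP and was not tested. Dimt1, on the opposite strand, covers 19.2% of the exonic bases of Kif2a, and Pdzd11 covers 15.1% of those of Kif4. Dimt1 had 416 and 474 counts in input and 370 and 383 in RIP, fewer than Kif2a in each library.

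Kifc1 and Kifc5b are near-identical copies of the minus-end-directed spindle motor. Their coding sequences align with 98.1% identity (32 mismatches), and 10.4% of the 150-base windows of the Kifc1 transcript occur unchanged in Kifc5b. The stretch where they differ most is shown because reads from it can separate the copies, with mismatched bases in capitals, 5′ to 3′ on the coding strand.
Kifc1: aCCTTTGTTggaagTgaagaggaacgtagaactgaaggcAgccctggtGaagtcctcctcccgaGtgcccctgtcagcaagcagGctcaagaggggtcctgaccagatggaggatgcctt
Kifc5b: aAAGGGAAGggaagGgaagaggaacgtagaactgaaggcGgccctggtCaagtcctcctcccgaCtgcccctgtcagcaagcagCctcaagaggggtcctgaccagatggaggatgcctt
The stretches lie at chr17:33886777-33886896 (Kifc1, minus strand) and chr17:26920799-26920918 (Kifc5b, plus strand). Kifc1 was at 29.2 and 26.5 CPM in input and at 76.5 and 66.9 CPM in RIP (1.37 ± 0.0683). Kifc5b was at 13.01 and 13.6 CPM in input and at 30.3 and 30.5 CPM in RIP (1.19 ± 0.0856). Both rose by similar amounts, and how shared reads were divided between the copies is not given in the sources used here, so each value is uncertain. Apart from this pair, only Kif28 shared a 150-base window with another gene (6 windows, with Ahctf1).

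Transport kinesins rose in 13 of 14 cases, over a wider range than the mitotic group. Their log2 fold changes ran from -0.05 to 1.91 with a median of 1.16, and 7 rose at least 2-fold. The matching shares of all genes were 38.7% higher, and 17.1% by at least 2-fold. Kif13a, a carrier of endosomes and of the mannose-6-phosphate receptor, was at 27.2 and 26.3 CPM in input and at 102.3 and 98.4 CPM in RIP (1.91 ± 0.0560, edgeR adjusted p = 9.22e-26). Its sister Kif13b was at 32.9 and 34.98 CPM in input and at 111.9 and 108.3 CPM in RIP (1.70 ± 0.0522). Each RIP library was above 3 times the level of each input library for both genes.

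Kif1c, a carrier of dense vesicles and integrins, was the most abundant kinesin by CPM in RIP. It was at 181.8 and 184.4 CPM in input and at 487.9 and 463.3 CPM in RIP (1.38 ± 0.0306). Kif1b, a carrier of mitochondria and synaptic vesicle precursors, rose by 1.65 ± 0.0360. Its near relative Kif1a, best known from axons, was rarer, at 10.1 and 13.1 CPM in input and 23.9 and 21.9 CPM in RIP (0.98 ± 0.105). Kif16b, an early endosome motor, rose by 1.33 and the minus-end motor Kifc3 by 1.48.

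The kinesin-1 heavy chains, the founding transport motors, rose less or did not pass. Kif5b, the ubiquitous form, was at 185.1 and 185.4 CPM in input and at 337.0 and 329.9 CPM in RIP (0.85 ± 0.0305). Kif5a, a neuronal form, was at 4.74 and 3.56 CPM in input and at 8.10 and 6.59 CPM in RIP (0.82 ± 0.173, edgeR adjusted p = 7.46e-05). Kif5c, another neuronal form, was at 6.12 and 5.96 CPM in input and at 5.26 and 6.39 CPM in RIP. Its groups overlapped, and the log2 fold change of -0.05 ± 0.161 did not pass (edgeR adjusted p = 0.774). Kif5b and Kif5c have coding sequences of similar length, 2889 and 2868 nt, and their log2 fold changes differed by 0.90 with a combined SE of 0.164, a difference that was not tested. With total counts Kif5c passed as lower, at -0.40, where the median of all genes was also -0.40 and 50.8% were lower.

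Other closely related pairs also separated. Kif21b, a motor that pauses microtubule growth, was at 37.9 and 38.8 CPM in input and at 114.6 and 114.1 CPM in RIP (1.58 ± 0.0492). Kif21a, whose mutations cause an eye movement disorder, was at 34.2 and 27.7 CPM in input and at 52.7 and 51.2 CPM in RIP (0.75 ± 0.0733). Input levels of the pair were alike, whereas RIP levels lay far apart, and the log2 fold changes differed by 0.83 with a combined SE of 0.0883. Kifc2, a minus-end motor of dendrites, was at 2.35 and 3.27 CPM in input and at 4.97 and 4.55 CPM in RIP (0.76 ± 0.203). It did not pass with total counts (0.41) or without input replicate 1 (0.56).

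Ciliary kinesins moved in both directions. Of 9 genes 5 rose, Kif6 fell and 3 did not pass, with a median log2 fold change of 0.36. Of all genes tested 38.7% were higher and 38.6% lower. Kif7, the regulator of Hedgehog signalling at the cilium tip, rose most, from 14.8 and 14.4 CPM in input to 46.1 and 41.3 CPM in RIP (1.58 ± 0.0809). Kif24, which trims centriolar microtubules and holds back cilium formation, rose by 1.10 ± 0.107. An opposite-strand transcript covers 19.1% of the exonic bases of Kif7, with no count in input and 4 counts in each RIP library.

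Subunits of heterotrimeric kinesin-2, the motor that drives material into cilia, rose by unequal amounts. Kif3b was at 51.0 and 51.3 CPM in input and at 126.1 and 130.3 CPM in RIP (1.32 ± 0.0451, edgeR adjusted p = 7.09e-24). Its partner Kif3a was at 44.1 and 44.0 CPM in input and at 78.7 and 79.7 CPM in RIP (0.85 ± 0.0530). Kif3c, the alternative partner placed with the transport kinesins, was at 7.82 and 8.24 CPM in input and at 10.97 and 10.7 CPM in RIP (0.43 ± 0.126). Groups did not overlap for any of the 3 genes, but the share of all genes without overlap is not given here. Kif27 and Kif19a, which did not pass the test, had groups without overlap as well. The rises of the 3 genes were ordered Kif3b, Kif3a, Kif3c. Differences between neighbours were 0.48 ± 0.0696 and 0.42 ± 0.137 (combined SE) and were not tested. Kif3c did not pass with total counts (0.08) or upper-quartile scaling (0.09), and the opposite-strand gene 1110002L01Rik covers 35.3% of its exonic bases. Kif17, the homodimeric relative, was at 6.36 and 6.09 CPM in input and at 7.48 and 8.19 CPM in RIP (0.33 ± 0.146, edgeR adjusted p = 0.0391). That call was lost with total counts (-0.02), with DESeq2 (0.40) and when either input library (0.38 without replicate 1, 0.30 without replicate 2) or RIP replicate 2 (0.31) was left out.

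Kinesins of motile cilia and sperm tails were rare and did not rise. Kif6 was at 2.03 and 2.44 CPM in input and at 0.857 and 1.18 CPM in RIP. Both RIP libraries were below both input libraries, a log2 fold change of -1.13 ± 0.321 (edgeR adjusted p = 0.00208), and without input replicate 2 the call was lost (-0.98). Kif9, a central-apparatus motor, was at 1.66 and 1.33 CPM in input and at 1.60 and 1.74 CPM in RIP, with overlapping groups. Kif19a, which shortens cilia, had 21 and 26 counts in input and 19 and 28 in RIP and did not pass (-0.47 ± 0.438). Kif27, a relative of Kif7, was at 4.94 and 3.77 CPM in input and at 6.00 and 5.20 CPM in RIP (0.36 ± 0.178, edgeR adjusted p = 0.0641). Without the count filter (0.42) or without RIP replicate 2 (0.50) Kif27 passed as higher.

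Among the 4 other kinesins, the signalling proteins of the kinesin-11 family rose. Kif26b, a regulator of cell adhesion in the developing kidney, was at 12.9 and 11.6 CPM in input and at 38.6 and 39.6 CPM in RIP (1.67 ± 0.0834). Kif26a, a regulator of enteric nerve development, was at 8.51 and 8.74 CPM in input and at 19.1 and 18.4 CPM in RIP (1.12 ± 0.108). Kif12 had 2 counts in an input library and 0 in the other 3. A count of 0 allows up to 3 counts, or 0.0886 CPM in a RIP library, by counting error alone. Kif28 had 2 and 4 counts in input and 6 and 2 in RIP and was not tested.

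Long coding sequences rank high in RIP over the whole table, and kinesin messages are long. The median coding length was 3081 nt for the kinesins tested and 1375.5 nt for all genes tested with a coding sequence. Over 14686 genes Spearman's rho between coding length and log2 fold change was 0.638, and over the 39 kinesins it was 0.442. With the length of the 3′ untranslated region rho was 0.07 over the kinesins and 0.266 over all genes. With the input level it was 0.525 over the kinesins and 0.271 over all genes, where input counts enter both measures. All points come from the same 4 libraries.

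An offset for coding length was put into the edgeR fit, taken from a smooth trend of log2 fold change on coding length over all genes. Relative to genes of their length, 26 kinesins were higher, 6 lower and 7 did not pass, against 44.7% higher and 29.2% lower over the 14686 genes. With exonic length in place of coding length 32 were higher and 2 lower, against 40.4% and 29.9% of all genes. The trend itself assigned the kinesins log2 changes from 0.24 (Kif22) to 1.17 (Kif26b). This fit was scaled over genes with a coding length only, so its trend cannot be subtracted from the fold changes given above. Kif26a, for example, had a fold change of 1.12 and a trend of 1.10 on the log2 scale, and stood at -0.12 after the offset. The median of the kinesins was 0.42 after the offset, against 0.13 for all genes. All 14 mitotic kinesins tested remained higher, from 0.33 (Kif20b) to 0.97 (Kifc1). Of the transport kinesins 8 were higher, 2 lower and 4 did not pass, and of the ciliary kinesins 3 were higher, 4 lower and 2 did not pass.

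**Figure D2:**
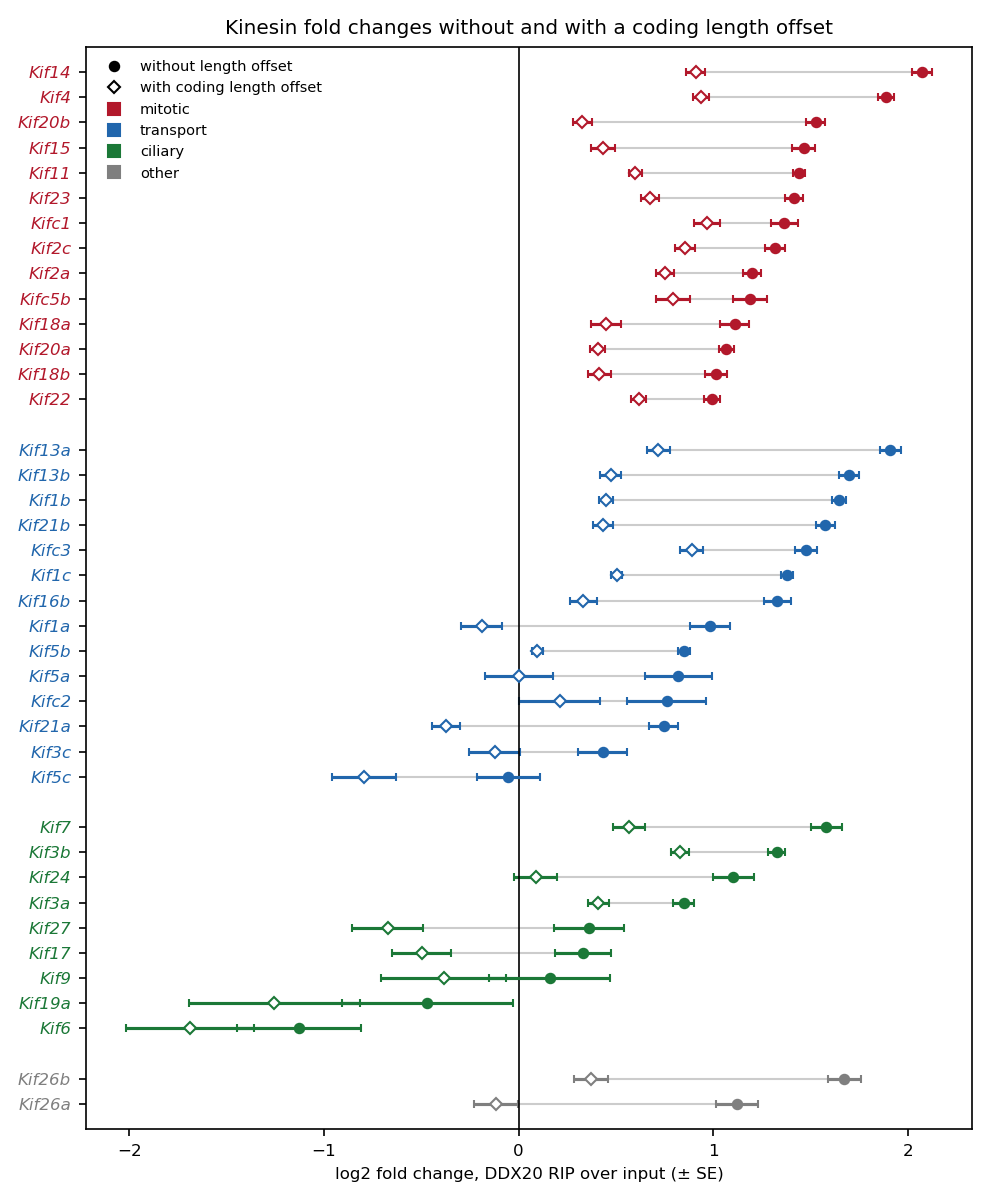
Log2 fold change of each kinesin tested (DDX20 RIP over input, ± SE, n = 2 libraries per group), without the offset as filled circles and with the coding length offset as open diamonds. Mitotic kinesins stay right of 0 with the offset. Kif21a, Kif5c, Kif27, Kif17, Kif19a and Kif6 lie left of it and were called lower. Kif9, Kif1a, Kif3c and Kif26a also lie left of it but did not pass.

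The members called lower after the coding length offset were named after their values were seen. Kif21a stood at -0.38 ± 0.0720 after the offset (edgeR adjusted p = 7.72e-06), where Kif21b stood at 0.43. Kif5c stood at -0.80 ± 0.164, where Kif5b stood at 0.10 and Kif5a at 0.002. Kif27 stood at -0.67 and Kif7 at 0.57. Kif17 stood at -0.50, Kif19a at -1.25 and Kif6 at -1.69. Of these 6 genes, Kif5c (-0.50 and -0.88) and Kif6 (-1.42 and -1.38) were also lower with exonic and with transcript length as the offset. Kif17 (0.22 and 0.08), Kif27 (0.13 and -0.18) and Kif19a (-0.45 and -0.72) did not pass with either. Kif21a was higher with exonic length (0.39) and did not pass with transcript length (0.03). Kif7 (4041 nt) and Kif27 (4182 nt) have coding sequences of like length and lay on opposite sides of the coding length trend.

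**Figure D3:**
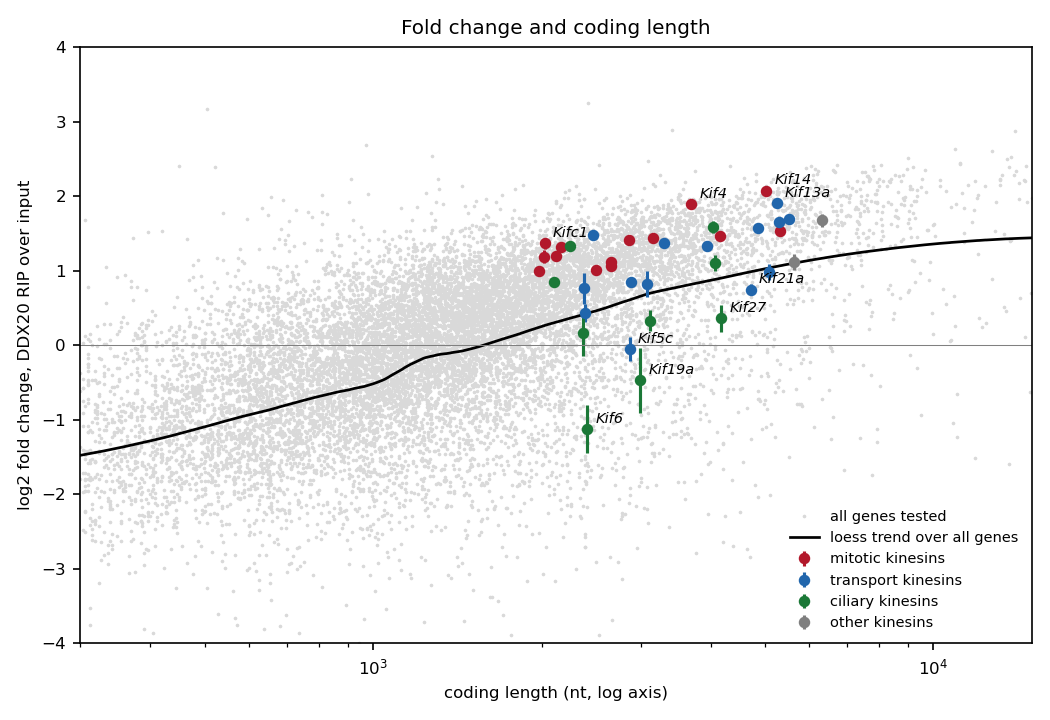
Log2 fold change (DDX20 RIP over input) against coding length (nt, log axis) for all genes tested in grey, with the loess trend as a black line and kinesins in colour by sub-group (bars are SE, n = 2 libraries per group). Kif14, Kif13a and Kif4 lie above the trend, and Kif6, Kif19a and Kif5c lie below it. The offset fit was scaled over genes with a coding length only, so kinesins near the line can have offset values of either sign.

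Of the 6 kinesins called lower after the coding length offset, all but Kif21a were scarce. A split at 10 CPM in input, chosen after seeing the data, left 28 kinesins above and 11 below. All 28 abundant members rose (median log2 fold change 1.37), and after the coding length offset 26 were higher and 1 (Kif21a) was lower. Of the 11 scarce members 6 rose, with a median of 0.36, and after the offset none was higher and 5 were lower. The shares of all genes called on each side of 10 CPM are not given here, so these counts have no matching background. The 14 mitotic kinesins all lay among the abundant members, as did 10 of 14 transport kinesins and 3 of 9 ciliary kinesins. Role and input level therefore overlap, and their parts in the result cannot be told apart with these members. Per kilobase of transcript, Kif22 (35.8 CPM per kb), Kif5b (30.7), Kif1c (27.4), Kif11 (26.0) and Kif20a (23.5) had the highest input levels. Kif5a was at 0.659 and Kif6 at 0.633 CPM per kb.

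By motor family, kinesin-3 rose throughout. All 7 members tested (Kif1a, Kif1b, Kif1c, Kif13a, Kif13b, Kif14 and Kif16b) were higher, from 0.98 to 2.07, and 6 of them remained higher after the coding length offset. The exception was Kif1a, at -0.19. All 4 kinesin-14 genes and all 3 kinesin-6 genes rose as well. The kinesin-9 family, made up of Kif6 and Kif9, had no member that rose. The share of all genes called higher was 38.7%, and 44.7% with the coding length offset.

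Partners of the kinesins were described from lists of their cargo adaptors, their spindle partners and the intraflagellar transport (IFT) particles that kinesin-2 carries. Among 16 cargo partners 13 were higher and 3 lower (median log2 fold change 0.66), against 38.7% and 38.6% of all genes. After the coding length offset 10 were higher and 3 lower, against 44.7% and 29.2%. Both counts of higher genes include Mapk8ip2, which passed the count filter through its RIP libraries (0 and 10 counts in input, 26 and 34 in RIP). Mapk8ip2 did not pass with DESeq2 (adjusted p = 0.391). Kifap3, which joins Kif3a and Kif3b into the heterotrimer, was at 43.3 and 46.3 CPM in input and at 174.2 and 173.9 CPM in RIP (1.96 ± 0.0442), and the motor subunits stood at 1.32 and 0.85. Klc1, a kinesin-1 light chain, was at 91.6 and 90.8 CPM in input and at 255.0 and 251.1 CPM in RIP (1.47 ± 0.0356). Mapk8ip1, a scaffold that links kinesin-1 to kinase cargo, fell from 46.0 and 47.8 CPM in input to 39.7 and 42.4 CPM in RIP (-0.19). The light chain Klc3 fell from 34.0 and 32.8 CPM in input to 28.9 and 27.9 CPM in RIP (-0.23). Neither passed with DESeq2 (adjusted p = 0.151 and 0.0932), and Klc3 was higher with a transcript length offset (0.32). The third partner that fell, Fez1, went from 8.59 and 8.90 CPM in input to 3.25 and 2.60 CPM in RIP (-1.58 ± 0.171). Fez1 was also lower with DESeq2 (-1.52) and with the coding, exonic and transcript length offsets (-1.47, -1.57 and -1.15).

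Of 16 spindle partners 12 were higher and 4 lower (median 1.41), against 38.7% and 38.6% of all genes. After the coding length offset 14 were higher and 2 lower, against 44.7% and 29.2%. Ckap5, a microtubule polymerase, was at 180.1 and 186.3 CPM in input and at 856.8 and 851.4 CPM in RIP (2.22 ± 0.0277). Anln, the cytokinetic ring protein anillin, was at 218.0 and 212.4 CPM in input and at 788.4 and 786.6 CPM in RIP (1.87 ± 0.0271). Subunits of the chromosomal passenger complex moved in both directions. Birc5 fell from 120.9 and 120.7 CPM in input to 106.3 and 106.5 CPM in RIP (-0.18). Cdca8 fell from 72.7 and 77.7 CPM in input to 61.0 and 68.7 CPM in RIP (-0.21). The other subunits, Aurkb (0.56) and Incenp (0.89), rose. After the coding length offset Birc5 (0.93) and Cdca8 (0.28) were higher, whereas with exonic length Birc5 did not pass (0.001) and Cdca8 was lower (-0.44). Racgap1, the partner of Kif23, rose by 1.25 and Cit, the partner of Kif14, by 2.14, while Cenpe, a kinesin of kinetochores whose symbol falls outside the rule, rose by 1.90. Nusap1 (-0.41) and Hmmr (-0.195) fell, and they were the 2 partners lower after the coding length offset (-0.40 and -0.75). Nusap1 was also lower with DESeq2 (-0.35), where Hmmr did not pass (-0.13). Aurkb, Incenp, Racgap1, Cit, Cenpe, Nusap1 and Hmmr were named after their values were seen.

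The 21 IFT genes split, with 11 higher, 7 lower and 3 that did not pass, at a median of 0.42. The shares over all genes were 38.7% higher and 38.6% lower. Ttc21b, a subunit of the complex for return transport, was at 42.6 and 42.1 CPM in input and at 176.1 and 163.8 CPM in RIP (2.00 ± 0.0465). Ift140, of the same complex, was at 38.3 and 42.3 CPM in input and at 119.4 and 115.5 CPM in RIP (1.54 ± 0.0512). Both complexes held genes of either direction, as Ift172 (2.03) of the outward complex rose and Ift43 (-1.31) of the return complex fell, a pair named after their values were seen. Ift46, of the outward complex, fell from 97.0 and 93.2 CPM in input to 66.5 and 68.0 CPM in RIP (-0.50). Ift20, of the outward complex as well, fell from 106.3 and 107.3 CPM in input to 44.9 and 42.01 CPM in RIP. After the coding length offset 9 of the 21 IFT genes were higher and 5 lower, near the shares of all genes (44.7% and 29.2%).

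**Figure D4:**
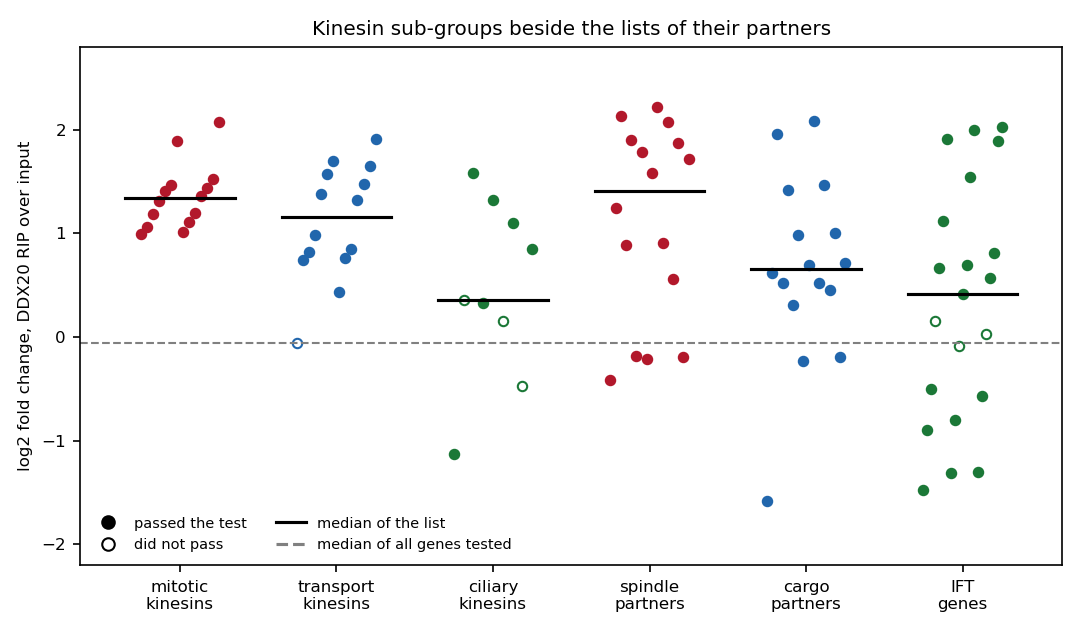
Log2 fold change (DDX20 RIP over input) of the kinesins tested in 3 sub-groups beside their spindle partners, cargo partners and IFT genes; each point is a gene, filled where it passed the test, and black bars are list medians. Mitotic kinesins all lie above the dashed median of all genes (-0.05), and ciliary kinesins and IFT genes spread to both sides of it.

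Markers of the cell types that a testis suspension holds were all detected, with none at 0. Summed levels of germ cell markers (10 genes) were 594.6 to 603.7 CPM in input and 264.3 to 271.3 CPM in RIP. Of these 10 markers 3 were higher and 6 lower. Sertoli cell markers (10 genes) summed to 4263 to 4286 and 2852 to 2864 CPM, with 2 higher and 7 lower. Over all genes 38.7% were higher and 38.6% lower. Clu held a large part of the Sertoli sum (2081 and 2058 CPM in input, 1304 and 1294 CPM in RIP). Leydig cell markers (7 genes) summed to 398.8 to 405.8 and 222.9 to 225.3 CPM, endothelial markers (5 genes) to 60.7 to 62.2 and 22.5 to 23.2 CPM, and macrophage markers (5 genes) to 117.7 to 121.4 and 40.8 to 42.4 CPM. Red blood cell markers (5 genes) summed to 268.6 to 272.1 and 76.2 to 76.8 CPM. Stromal markers (6 genes) summed to 2894 to 2899 in input and 5675 to 5852 CPM in RIP. That rise lay in Col1a1 (1609 and 1631 CPM in input, 4970 and 4778 CPM in RIP), and of the 6 stromal markers 2 were higher and 3 lower, with a median log2 fold change of -0.23. The part of such differences in the kinesin values was not tested. Input and RIP libraries are labelled as the same cell source, so these sums compare shares of reads and not numbers of cells.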

How the data were processed

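The authors deposited whole-number read counts per gene. Per the submitters' processing notes, these involved Trimmomatic 0.36, cutadapt 4.1, STAR 2.7.2b, SAMtools, featureCounts and the build GRCm38, with settings and annotation release not given there. Between 65.37% and 67.4% of nonzero counts are even, as when both mates are counted, which overstates depth. GENCODE M21 (GRCm38) named 94.08% of identifiers and gave coordinates and lengths. It has other version numbers for every member, and the models counted may therefore differ. Not every overlap of a member with an opposite-strand gene is reported here.

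Genes passing filterByExpr were scaled by TMM and tested with edgeR 4.0.16 in R 4.3.3 (robust quasi-likelihood fit), adjusting p over all genes by Benjamini-Hochberg. SE is the absolute log2 fold change over the square root of F. The common biological coefficient of variation was 0.032. Limits from counts cover counting error only. The length trend was loess (span 0.3). Code was tested on simulated data, and coding sequences were aligned with Biopython 1.88.

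Members, roles and lists were chosen with earlier results of these data known. Library values are given for the 4 largest and 4 smallest called changes, the 2 most abundant members of each role, kinesin families 1, 2, 6 and 13, and the 2 most abundant called partners per list and direction. Other genes were named after their values were seen. Alternatives covered scaling, count filters, DESeq2 1.42.0, limma-voom 3.58.1, a 1.5-fold threshold, halved counts, length offsets (by transcript length added after seeing the data), a replicate block and each library left out.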

Additional observations from a re-analysis of the deposited data

How the results depend on the processing

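All 14 mitotic kinesins passed as higher in each of the 17 alternatives, and 27 of the 39 kinesins tested kept their call in all of them. The count of kinesins higher in RIP ran from 26 to 35, against 34. Leaving out each library gave 32 to 34 higher, 0 to 1 lower, 14 mitotic, 12 to 13 transport and 4 to 5 ciliary kinesins higher, a median of 1.18 to 1.23, 30 to 32 members called after the coding length offset, and 11337 to 12384 calls over all genes; the lone library of a group is then assumed to vary like the rest. The lower count was 2 with upper-quartile scaling, total counts and the exonic length offset, 3 with the transcript length offset and 6 with the coding length offset, where 8 transport and 3 ciliary kinesins were higher. Against 1.5-fold, 8636 of all genes passed, in place of 13461.

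The median kinesin log2 fold change, 1.19, was 0.85 with upper-quartile scaling, 0.84 with total counts, 1.24 with no count filter, 1.11 with a CPM of at least 1 in 2 libraries, 1.25 with DESeq2, 1.15 with halved counts, 0.82 with the exonic, 0.65 with the transcript and 0.42 with the coding length offset. Among values that passed in either fit, the sign changed for Kif17 (-0.010 with upper-quartile scaling, -0.017 with total counts, -0.50 with the coding length offset), for Kif3c (-0.12, -0.039 and -0.39 with the coding, exonic and transcript length offsets), and with the coding length offset for Kif27 (-0.67), Kif26a (-0.12), Kif1a (-0.19) and Kif21a (-0.38); beyond the offset itself the cause was not tested. Among values that passed in neither, it changed for Kif9 (-0.18, -0.19 and -0.39 with upper-quartile scaling, total counts and the coding length offset), Kif27 (-0.18 with the transcript length offset) and Kif5c (0.011 with DESeq2, 0.001 with no count filter, 0.12 without RIP replicate 1).

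Deviations of the same-numbered libraries correlated at -0.001. Libraries of a group differed little beyond counting noise (median chi-square of halved counts over sampling noise 1.193 in input and 1.152 in RIP). The correlation therefore cannot tell whether same-numbered libraries share a preparation. With the replicate number as a block 34 kinesins were higher, 1 was lower and 32 were called after the coding length offset, as without it. Kif6, Kif9 and Kif19a rest on 19 to 59 counts per library, which limits the changes that can be seen.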
